A study of Arabidopsis thaliana with 24 samples.

Results

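The comparison described here is that of coi1 leaf blades 30 min after detachment with coi1 leaf blades at the moment of detachment (t0) in Arabidopsis thaliana, over all genes. It rests on 4 of the 24 libraries used from a detachment time course: 30 min replicates 1 and 2, and t0 replicates 1 and 2, taken by the genotype, time and replicate number in their labels. The coi1 plants carried the coi1-2 allele, and the wild type (WT) was Col-0. Seedlings of both genotypes were 12 d old and had been grown at 22 °C on half-strength MS medium containing 1% sucrose, with 16 h of light and 8 h of dark. Blades of the first rosette leaf pair were cut from their petioles and kept on B5 medium without sucrose under continuous light, and whole explants were harvested. The 30 min and t0 groups therefore also differ in time of day, in the sugar of the medium and in contact with fresh medium, and these cannot be told apart from time after the cut. The labels do not say that replicates came from separate cultures, so every p-value here measures the spread between libraries. Unless stated otherwise that spread was pooled over all 16 coi1 libraries, and partners at the other times differed less than those at 30 min and t0. In whole explants fewer cells of a type and less RNA per cell cannot be told apart.

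COI1 is the F-box protein that, with bound jasmonoyl-isoleucine, sends JAZ repressors to the proteasome and so frees MYC transcription factors to switch on jasmonate genes. Wounding of a leaf starts calcium and peroxide signals, transcription factors of the ERF, WRKY and ZAT families, and jasmonate synthesis within minutes, and much of the later jasmonate programme needs COI1. Many leaf genes also follow the circadian clock, in which CCA1 and LHY peak in the morning and repress evening genes such as TOC1, GI and ELF4. Detached Arabidopsis leaf blades can regenerate roots from the cut end, which is the process the time course was made to study.

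COI1 itself was at 13.1 and 13.7 TPM in the 30 min libraries, against 14.5 and 14.3 TPM in the t0 libraries (TPM, the authors' transcript abundance scaled for gene length and library total). The coi1-2 allele carries a substitution, so this transcript level does not check the genotype. The jasmonate marker VSP2 was at 1.29 and 0.28 TPM in the coi1 30 min libraries and 1.36 and 0.52 TPM in the coi1 t0 libraries, beside 71.1 and 43.8 TPM in the WT 30 min and t0 libraries. The tissue label was matched by RBCS1A, a small subunit of Rubisco, at 14880 and 17430 TPM at 30 min and 20270 and 22600 TPM at t0, while WUS, STM, CLV3 and KNAT1, which mark the shoot meristem, were listed at 0 in all 4 libraries. Sequencing depth is not given by TPM and is unknown here.

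The 4 libraries did not fall into 2 even pairs. A clock score, the mean log2(TPM + 1) of 11 morning genes minus that of 12 evening genes, was -4.75 in 30 min replicate 1 and 2.96 in 30 min replicate 2, against -4.26 and -4.09 in the t0 libraries. Of these 4 libraries, only 30 min replicate 2 was outside the evening state of t0. The 10 min coi1 libraries scored -4.25 and -4.21, the 1 h pair 2.28 and -1.03, and the 2 h pair 1.27 and -1.87, and in WT the score was -3.90 at t0, -4.08 at 30 min and -3.64 at 1 h. Across the 19323 genes tested, which are not independent replicates, 30 min replicate 1 correlated with t0 replicate 1 at r = 0.955 and with its own partner at r = 0.879, while 30 min replicate 2 was closest to a 1 h library (r = 0.938). The root mean square difference between partners was 1.05 log2 units at 30 min and 0.70 at t0, and 0.32 to 0.50 at the other 6 times. The t0 libraries differed as well, t0 replicate 1 being nearer to 10 min replicate 1 (r = 0.958) than to t0 replicate 2 (r = 0.944). The labels name no batch, and which of the 2 clock states belongs to 30 min cannot be told from them.

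**Figure D1:**
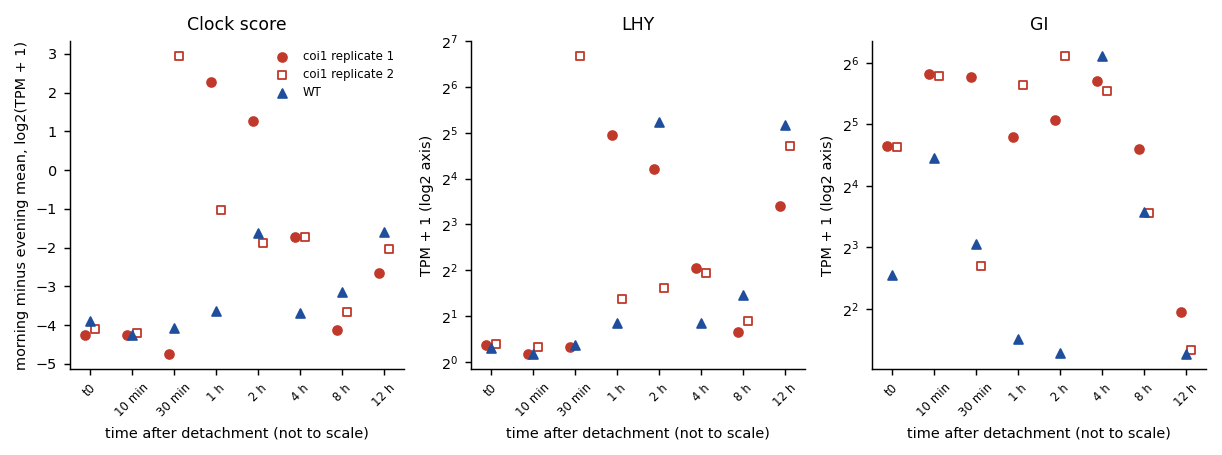
Clock state of every library by time after detachment, with the clock score on the left (log2 units) and TPM + 1 on log2 axes for the morning gene LHY and the evening gene GI. Filled circles and open squares are coi1 replicates 1 and 2 and triangles are the single WT libraries, and at 30 min the 2 coi1 scores are -4.75 and 2.96.

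Over all genes, limma called 1784 of 19323 genes (9.23%) at an adjusted p below 0.05, of which 534 (2.76%) were higher and 1250 (6.47%) lower at 30 min. The balance rested on scaling: the higher share of the calls was 29.9%, and 60.7% after TPM were rescaled by median-of-ratios factors, when 1162 genes (6.01%) were called, 705 (3.65%) higher and 457 (2.37%) lower. The median change of all genes was -0.18 log2 units and became -0.02 on rescaling, so changes below are read against that shift. The count also rested on the spread that the other 12 coi1 libraries lent to the fit and on single libraries: it was 153 without t0 replicate 2, 7901 without 30 min replicate 1, 7 when each time had its own weight, and 0 of 19323 with limma on the 4 libraries alone, where 1406 had an unadjusted p below 0.05.

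Changes common to both 30 min libraries were therefore separated from those carried by 1 of them. A gene was counted as shared where both 30 min libraries lay at least 1 log2 unit beyond both t0 libraries, and as carried by 1 library where 1 of them did and the other did not pass that end of the t0 range at all. The 2 groups did not overlap in 1926 genes (9.97%) that were higher at 30 min and 6703 (34.7%) that were lower, so the distance of 1 unit removed most of them. There were 210 shared higher genes (1.09% of those tested) and 116 shared lower genes (0.6%). Replicate 1 alone carried 332 higher genes (1.72%) and 116 lower genes (0.6%), and replicate 2 alone carried 387 higher (2.0%) and 646 lower genes (3.34%). In 61 genes (0.316%) the 30 min libraries lay at least 1 unit beyond opposite ends of the t0 range, and in 1664 (8.61%) 1 library was beyond the limit and the other had passed the same end by less. After rescaling, 294 genes (1.52%) were shared higher and 81 (0.419%) shared lower. Of the shared genes limma called 185 higher (0.957% of all tested) and 95 lower (0.492%), so that 280 of its 1784 calls were shared ones. It called none of the 1481 genes carried by 1 library, of which 136 had an unadjusted p below 0.05. Both outcomes follow in large part from the class rules, which use the same 4 libraries as the contrast. For genes carried by 1 library the classes are a description without a test. The 332 genes higher in replicate 1 alone had medians of 28.8 and 5.47 TPM at 30 min and 9.6 and 1.96 TPM at t0. Their class therefore does not show that replicate 2 lacked a rise over t0 replicate 2. Just inside the limit, AT1G78280 had 43.7 and 24.1 TPM at 30 min and 11.6 and 6.27 TPM at t0, and just outside it AT3G49160 had 14.7 and 26.9 TPM at 30 min and 6.86 and 4.17 TPM at t0.

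**Figure D2:**
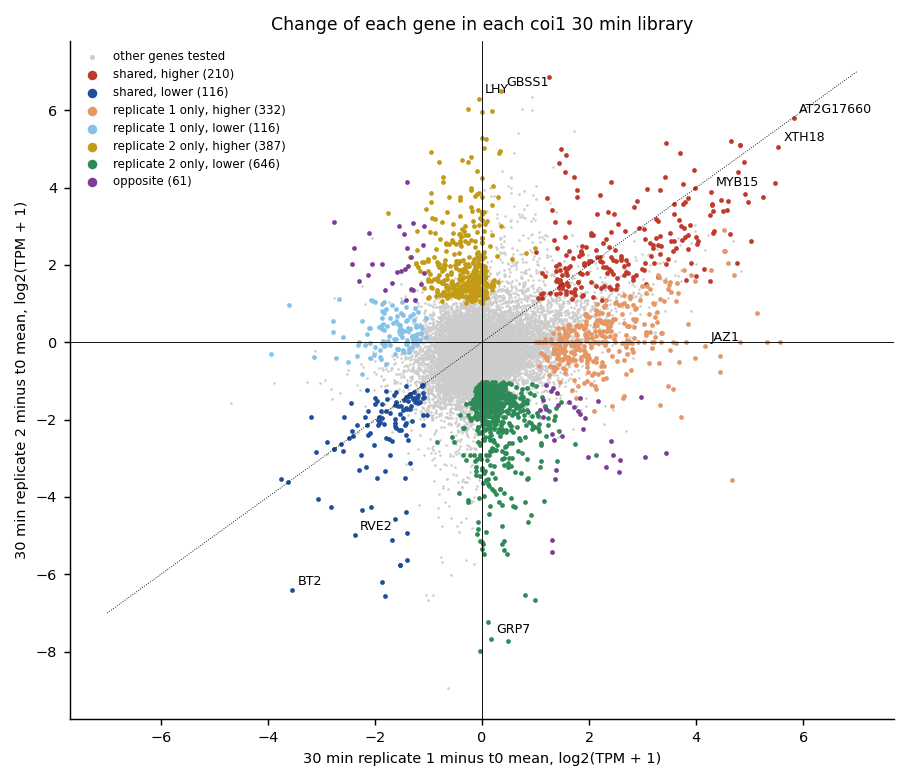
Each point is 1 of the 19323 genes tested, placed by its difference from the t0 mean in 30 min replicate 1 (horizontal) and 30 min replicate 2 (vertical), both in log2(TPM + 1). Shared genes lie near the dotted diagonal, with AT2G17660 at 5.82 and 5.79 and BT2 at -3.55 and -6.40, while LHY (-0.05 and 6.30) and GRP7 (0.17 and -7.67) lie along the vertical axis.

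The shared rise was led by AT2G17660, XTH18, PHI-1, CML40 and AT1G56660. AT2G17660, of the family of the immune regulator RIN4, had 98.3 and 96.2 TPM at 30 min, against 1.76 and 0.12 TPM at t0, a rise of 5.80 ± 0.37 log2 units (SE, adjusted p = 1.25e-04). AT1G56660, annotated as a MAEBL domain protein, had 129.8 and 110.5 TPM at 30 min, against 4.84 and 2.33 TPM at t0, and rose by 4.78 ± 0.28 (adjusted p = 6.42e-05). Both genes were far above t0 in both 30 min libraries, and both were among the 7 genes still called when each time had its own weight. MYB15, a transcription factor of cold and defence responses, had 20.04 and 15.2 TPM at 30 min, against 0.13 and 0.05 TPM at t0, and rose by 4.08 ± 0.28 (adjusted p = 1.25e-04). SRO5, a protein of oxidative stress responses, had 56.3 and 19.3 TPM at 30 min, against 1.22 and 0.02 TPM at t0. It rose by 4.50 ± 0.45 (adjusted p = 9.72e-04), and replicate 1 was the higher of the 30 min pair.

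In most of the other 14 highest shared genes the t0 pair was uneven. The calmodulin-like gene CML40 had 84.1 and 32.8 TPM at 30 min, against 2.73 TPM in t0 replicate 1 and 0 in t0 replicate 2, and rose by 4.80 ± 0.71 (adjusted p = 0.00747). XTH18, an enzyme that cuts and rejoins xyloglucan in the wall, had 243 and 175 TPM at 30 min, against 26.2 and 0.03 TPM at t0, and rose by 5.29 ± 1.15 (adjusted p = 0.0255). PHI-1, of the EXORDIUM family of wall proteins, had 212 and 311 TPM at 30 min, against 57.1 and 0.25 TPM at t0, and rose by 4.92 ± 1.31 (adjusted p = 0.0454). In these genes both 30 min libraries exceeded both t0 libraries, as the shared rule requires, yet t0 replicate 1 stood well above t0 replicate 2. Without t0 replicate 2 none of CML40, XTH18 and PHI-1 was called. The peroxidases PER4 and AT5G64120 had changes of 4.07 and 4.00, the phloem lectin PP2-A5 had 4.13, the ARM repeat protein AT3G02840 had 4.30 and AT1G15010, annotated as a Mediator subunit, had 4.29. AT1G65490 (4.29, adjusted p = 0.0491) and its neighbour AT1G65486 (4.2, adjusted p = 0.0452) were close to the threshold, and AT1G65490 lost its call after rescaling (adjusted p = 0.0551). Over all 210 shared higher genes, t0 replicate 1 exceeded t0 replicate 2 in 173, by a median of 0.73 log2 units, against 9342 of all 19323 genes.

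**Figure D3:**
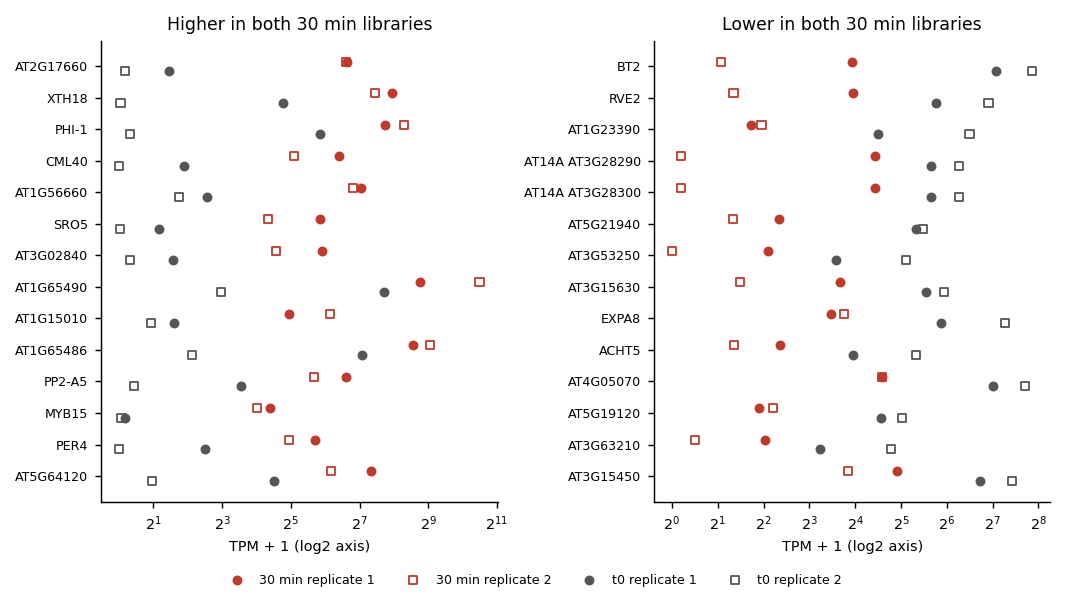
TPM + 1 on log2 axes of the 14 genes with the highest and the 14 with the lowest mean change among called, shared genes. Red symbols are the 30 min libraries and grey symbols the t0 libraries, with circles for replicate 1 and squares for replicate 2. Both red symbols lie on the same side of both grey ones because the rule for shared genes requires it. AT2G17660 had 98.3 and 96.2 against 1.76 and 0.12 TPM, and AT3G15450 had 29.1 and 13.4 against 105 and 170 TPM.

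The shared rise was mainly short-lived at the times the classes did not use. The median level of the 210 genes in replicates 1 and 2 was 2.95 and 0.45 TPM at t0, 3.47 and 3.11 TPM at 10 min, 20.1 and 15.5 TPM at 30 min, 15.9 and 13.8 TPM at 1 h, 6.42 and 5.53 TPM at 2 h, and 3.28 and 3.26 TPM at 8 h. That of the 116 shared lower genes was 14.5 and 25.8 TPM at t0, 21.1 and 21.5 TPM at 10 min, 4.25 and 2.37 TPM at 30 min, 1.55 and 2.54 TPM at 1 h, and 8.58 and 8.73 TPM at 8 h. The medians of the higher genes were thus back near those of 10 min by 8 h, while those of the lower genes were still below their 10 min values.

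The WT libraries, which had no part in the classes, moved in the same way at the shared genes. Of the 210 shared higher genes, 137 (65.2%) were at least 1 log2 unit higher in the WT 30 min library than in the WT t0 library, against 7.67% of all genes tested. Of the 116 shared lower genes, 62 (53.4%) were at least 1 unit lower in WT, against 6.53% of all genes. Genes carried by replicate 1 alone did nearly as often, with 206 of 332 (62.0%) higher and 53 of 116 (45.7%) lower in WT. Those carried by replicate 2 alone did not stand above all genes in that direction, with 23 of 387 (5.94%) higher and 22 of 646 (3.41%) lower. In the opposite direction, 86 of the 387 (22.2%) were at least 1 unit lower in WT and 34 of the 646 (5.26%) at least 1 unit higher. These WT shares rest on 1 library at each time and carry no test.

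Wound transcription factors were higher in replicate 1 than in replicate 2. Of 32 measured, 3 rose and none fell, where limma called 2.76% of all genes higher and 6.47% lower. The counts of the lists that follow are read against the same shares. The median was 2.11 log2 units above the t0 mean in replicate 1 and 0.03 in replicate 2. For replicate 2 this value hides opposite differences, as the list median lay above t0 replicate 2 and below t0 replicate 1. It does not show that replicate 2 lacked a wound response. ERF109, an ethylene response factor that links wounding to auxin synthesis, had 25.2 and 8.49 TPM at 30 min, against 0.67 TPM in t0 replicate 1 and 0 in t0 replicate 2, and rose by 3.61 ± 0.40 (adjusted p = 0.00193). ZAT11, a zinc finger factor, had 17.64 and 11.9 TPM at 30 min, against 1.0 and 0.05 TPM at t0, and rose by 3.42 ± 0.49 (adjusted p = 0.00629). MYB15 was the other. ASA1, the first enzyme of tryptophan synthesis and a target of ERF109, had 28.9 and 11.4 TPM at 30 min, against 20.5 and 19.4 TPM at t0, and did not pass the test (adjusted p = 0.827).

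WRKY40, a defence regulator, had 244 and 53.0 TPM at 30 min, against 75.3 and 0.47 TPM at t0, so that the groups overlapped (change 3.44 ± 1.45, adjusted p = 0.146). ERF2, ERF11, ZAT10, WRKY18, WRKY46 and WRKY53 were likewise counted as carried by replicate 1. Over the list t0 replicate 1 exceeded t0 replicate 2 by a median of 3.5 log2 units. Without t0 replicate 1, 19 of the 32 rose, beside 1145 of all 19323 genes. Without t0 replicate 2, 2 rose and 1 fell, beside 93 and 60 of all genes. Of 11 calcium and touch genes CML37, CML40 and CML9 rose, with changes of 3.32, 4.80 and 2.43, and none did without t0 replicate 2. Of 7 genes of wound peptides and their receptors PROPEP3, a danger peptide precursor, rose by 2.25 ± 0.58 (adjusted p = 0.0402).

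Jasmonate genes rose in part in the mutant. Of 10 measured JAZ repressors 3 rose and none fell, with a median of 0.71 over the list against -0.18 over all genes. JAZ6 had 38.5 and 49.3 TPM at 30 min, against 7.37 and 6.49 TPM at t0, and rose by 2.49 ± 0.20 (adjusted p = 4.99e-04). JAZ5 had 10.5 and 4.08 TPM at 30 min, against 0.44 and 0.06 TPM at t0, and rose by 2.63 ± 0.36 (adjusted p = 0.00539). The groups were well apart in both. JAZ7, the third, reached 1.31 and 0.56 TPM at 30 min, against 0.06 TPM and 0 at t0. JAZ10 had 2.56 and 2.92 TPM at 30 min, against 1.32 and 1.86 TPM at t0, and did not pass (change 0.54 ± 0.20, adjusted p = 0.109). JAZ1 had 119 TPM in 30 min replicate 1 and 5.16 TPM in replicate 2, against 27.6 and 0.54 TPM at t0, so that its higher level was carried by replicate 1 alone. Without t0 replicate 2, 1 of the 10 JAZ genes rose.

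Of 14 jasmonate biosynthesis genes the allene oxide cyclases AOC1 and AOC3 rose. AOC1 had 12.0 and 5.47 TPM at 30 min, against 0.75 and 0.41 TPM at t0 (change 2.54 ± 0.33, adjusted p = 0.00466), and AOC3 changed by 3.82. The AOC copies are close paralogs, and reads could be split between them. LOX3, LOX4, OPR3 and OPCL1, which act before and after the cyclases, were higher in replicate 1 alone, while LOX2, AOC2, AOC4, KAT2 and JAR1 were lower in replicate 2 alone. Among 18 genes of jasmonate response and breakdown, CYP94B3 and CYP94C1, cytochromes that oxidise jasmonoyl-isoleucine, and the jasmonate oxidase JOX2 rose and the hydrolase ILL6 fell. After rescaling the fall of ILL6 was not called. CYP94B3 had 20.5 and 10.1 TPM at 30 min, against 0.26 and 0.02 TPM at t0, and its rise of 3.77 ± 0.25 (adjusted p = 1.25e-04) was also called when each time had its own weight. Fewer genes of the biosynthesis and response lists were called without t0 replicate 2. The list medians did not both fall with that library left out. The median change of the biosynthesis genes was 0.53, or 0.10 without t0 replicate 2 and 0.06 without 30 min replicate 1. That of the response genes was 0.09, 0.14 and -0.06 in the same order, and that of all genes -0.18, -0.19 and -0.28. MYC2, the main transcription factor of this pathway, was listed at 0 in 30 min replicate 2 and in t0 replicate 2, which in TPM can be a failed estimate, and had 11.7 TPM in 30 min replicate 1 and 22.1 TPM in t0 replicate 1.

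The xyloglucan enzymes and the expansins, which both act on the growing cell wall, moved in opposite directions. Of 19 XTH and EXORDIUM genes 7 rose and none fell, with a median of 1.66. Beside XTH18 and PHI-1 these were XTH17, XTH19, XTH23, XTH24 and EXL5. XTH19 had 24.0 and 12.8 TPM at 30 min, against 1.8 and 0.03 TPM at t0, and rose by 3.45 ± 0.44 (adjusted p = 0.0046). Of 9 expansins, proteins that loosen the wall at low pH, 6 fell and none rose, with a median of -1.30. EXPA8 had 10.2 and 12.5 TPM at 30 min, against 57.9 and 154 TPM at t0, and fell by 2.96 on the log2 scale (SE 0.38, adjusted p = 0.00463). EXPA11 had 19.7 and 13.4 TPM at 30 min, against 57.3 and 69.4 TPM at t0, a change of -1.89 ± 0.41 (adjusted p = 0.0257). EXPA1, EXPA3, EXPA10 and EXPA15 also fell. After rescaling, 6 XTH and EXORDIUM genes rose and 4 expansins fell. Without t0 replicate 2, 1 of the 19 rose and 2 of the 9 expansins fell.

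Of 24 Aux/IAA genes, early auxin-response repressors, 5 rose and none fell. IAA6 had 20.2 and 21.2 TPM at 30 min, against 7.44 and 2.16 TPM at t0, and rose by 2.07 ± 0.40 (adjusted p = 0.0168). IAA2, IAA3, IAA5 and IAA19 changed by 1.35 to 1.75, and their 30 min libraries also lay above both t0 libraries. None of the 5 was called without t0 replicate 2. The auxin carriers PIN7 and AUX1, of 12 other auxin genes, fell by 1.70 and 1.33 on the log2 scale. Both calls also rested on t0 replicate 2. AUX1 had 14.1 and 21.1 TPM at 30 min, against 36.8 and 54.4 TPM at t0 (SE 0.21, adjusted p = 0.00902).

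BT2, RVE2 and AT1G23390 had the 3 lowest changes of the shared fall. BT2, a BTB-TAZ scaffold protein that responds to sugar and nitrogen supply, had 14.2 and 1.1 TPM at 30 min, against 135 and 233 TPM at t0, a change of -4.98 ± 0.75 (adjusted p = 0.00817). RVE2, a MYB-like protein of the REVEILLE clock family, had 14.5 and 1.54 TPM at 30 min, against 53.2 and 119 TPM at t0, a change of -3.69 ± 0.67 (adjusted p = 0.0147). In both genes replicate 2 was the lower of the 30 min pair, and neither was called without t0 replicate 2. AT1G23390, a Kelch-repeat F-box protein, had 2.33 and 2.88 TPM at 30 min, against 21.6 and 89.3 TPM at t0 (change -3.65 ± 0.49, adjusted p = 0.00474). AT4G05070 had 23.2 and 23.0 TPM at 30 min, against 128 and 207 TPM at t0 (change -2.77 ± 0.25, adjusted p = 6.29e-04), and AT5G21940 had 4.04 and 1.53 TPM at 30 min, against 38.9 and 43.7 TPM at t0 (change -3.56 ± 0.39, adjusted p = 0.0018). The 30 min pair of AT4G05070, annotated as a wound-responsive family protein, differed by less than 1 TPM.

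The rest of the 14 lowest had changes of -2.69 to -3.64. They were the chloroplast thioredoxin ACHT5, EXPA8, the SAUR-like gene AT3G53250, AT3G15630, AT5G19120, AT3G63210, AT3G15450 and the AT14A pair. The 2 AT14A copies, AT3G28290 and AT3G28300, carried the same TPM throughout, 20.5 and 0.15 TPM at 30 min and 49.3 and 75.6 TPM at t0. They count as 1 measurement. After rescaling neither the AT14A pair nor AT3G53250 was called (adjusted p = 0.0625 for AT3G53250), and AT3G53250 lost its call in 9 of 13 alternatives. ACHT5, AT3G15630, AT3G63210 and AT3G15450 were not called without t0 replicate 2 either, and t0 replicate 1 exceeded t0 replicate 2 in 19 of the 116 shared lower genes, with a median difference of -0.50. Of 13 genes of the sugar starvation list BT2 and TPS9 fell. DRM1, a dormancy gene, had 137 and 5.86 TPM at 30 min, against 390 and 644 TPM at t0, and just missed the threshold (change -4.03 ± 1.13, adjusted p = 0.0512). ASN1, which makes asparagine in starved leaves, had 7.7 and 56.0 TPM at 30 min, against 6.33 and 2.25 TPM at t0 (adjusted p = 0.0822).

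Short sequence elements were counted in the promoters of each class, as a description with no test. The windows were the 250 bases before the annotated gene start, on both strands, in the TAIR10.1 reference sequence from RefSeq, for the 18074 protein-coding nuclear genes tested. The core of the rapid stress response element, CGCGTT, was in 19 of 184 shared higher promoters (10.3%) and 25 of 286 promoters higher in replicate 1 alone (8.74%), against 2.9% of all promoters. It was in 3 of 342 promoters (0.877%) higher in replicate 2 alone. The sugar-repressive element TTATCC was in 27 of 102 shared lower promoters (26.5%) and 21 of 184 shared higher promoters (11.4%), against 13.4% of all. The W-box core TTGAC was in 60.3% of shared higher promoters and 44.5% of all. A match describes these letters only. The last 120 bases before the gene start are shown for genes with the element in that stretch. These are the 3 of the 14 highest shared genes with the stress element and the 3 of the 14 lowest with the sugar element. EXPA8, AT4G05070 and AT5G19120, also among the 14 lowest, carry the sugar element further upstream in the 250 bases. Sequences run 5′ to 3′ on the gene's own strand, with the element in capitals on whichever strand it lies.
XTH18 (chr4:14827212-14827331, minus strand): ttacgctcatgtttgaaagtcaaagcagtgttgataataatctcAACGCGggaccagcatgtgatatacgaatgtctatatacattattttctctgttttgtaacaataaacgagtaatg
PHI-1 (chr1:12851863-12851982, plus strand): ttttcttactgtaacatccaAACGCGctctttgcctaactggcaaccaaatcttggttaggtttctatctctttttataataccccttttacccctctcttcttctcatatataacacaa
AT1G15010 (chr1:5171061-5171180, plus strand): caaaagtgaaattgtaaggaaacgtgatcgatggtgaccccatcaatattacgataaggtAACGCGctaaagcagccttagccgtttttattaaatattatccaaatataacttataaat
ACHT5 (chr5:24707325-24707444, plus strand): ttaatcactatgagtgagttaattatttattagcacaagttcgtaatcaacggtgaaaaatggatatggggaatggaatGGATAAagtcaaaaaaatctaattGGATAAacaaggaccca
AT3G15450 (chr3:5212864-5212983, plus strand): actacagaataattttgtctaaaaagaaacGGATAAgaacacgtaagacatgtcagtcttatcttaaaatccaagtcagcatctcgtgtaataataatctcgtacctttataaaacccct
BT2 (chr3:17910739-17910858, minus strand): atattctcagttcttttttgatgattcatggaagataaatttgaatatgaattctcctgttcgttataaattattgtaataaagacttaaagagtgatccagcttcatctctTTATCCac

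The clock genes were the most uneven of the lists between the 30 min libraries. Relative to the t0 mean, the median of 11 morning genes was 0.03 in replicate 1 and 4.78 in replicate 2, and that of 12 evening genes was 0.47 in replicate 1 and -4.11 in replicate 2. LHY had 0.26 TPM in 30 min replicate 1 and 102 TPM in replicate 2, against 0.3 and 0.31 TPM at t0, and CCA1 had 0.72 and 154 TPM at 30 min, against 0.64 and 0.43 TPM at t0. PRR9, RVE8 and LNK3 followed the same course. Replicate 1 was near the t0 level in each of these morning genes.

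GRP7, a clock-controlled RNA-binding protein, had 4937 TPM in 30 min replicate 1 and 20.7 TPM in replicate 2, against 4278 and 4523 TPM at t0. ELF4, a part of the evening complex, had 212 and 0.3 TPM at 30 min, against 169 and 227 TPM at t0. GI had 53.7 and 5.49 TPM at 30 min, against 24.1 and 23.7 TPM at t0, and its 30 min libraries lay on opposite sides of t0. TOC1, PRR5, LUX, BOA, FKF1, GRP7, GRP8 and ELF4 were lower in replicate 2 alone. Of the 23 clock genes limma called LNK1 and CHE higher and RVE2 lower, and LNK1 lost its call after rescaling. CHE had 94.4 and 119 TPM at 30 min, against 59.3 and 35.2 TPM at t0, and RVE2 was below t0 in both libraries as described above.

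The evening element AAAATATCT, to which CCA1 and LHY bind, was in 60 of 609 promoters (9.85%) of genes lower in replicate 2 alone, against 2.62% of all promoters. It was in 2.17% of shared higher and 1.96% of shared lower promoters. GRP7 is shown because it carries the element 3 times in the last 120 bases before the gene start, with capitals marking it on either strand.
GRP7 (chr2:9266558-9266677, minus strand): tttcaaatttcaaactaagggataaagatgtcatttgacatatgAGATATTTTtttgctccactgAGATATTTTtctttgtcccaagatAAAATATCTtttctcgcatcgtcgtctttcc

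Starch genes followed replicate 2. Of 12 measured limma called none (3 at an unadjusted p below 0.05), and relative to the t0 mean the median was 0.36 in replicate 1 and -1.65 in replicate 2. SEX1, the glucan water dikinase that starts starch breakdown, had 462 and 12.4 TPM at 30 min, against 343 and 373 TPM at t0. PWD, SEX4, DPE1, DPE2 and ISA3, all enzymes of starch breakdown, were also lower in replicate 2 alone. GBSS1, the granule-bound synthase that makes amylose, had 2.17 and 222 TPM at 30 min, against 2.57 and 0.71 TPM at t0. Replicate 1 was less than 1 log2 unit from the t0 range in each of these genes.

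Light-response genes were higher mainly in replicate 2, where their median was 3.36 above the t0 mean, while in replicate 1 it was at that mean. Of 15 measured, PIF5, ATHB2 and COL1 rose and 6 were higher in replicate 2 alone, and after rescaling 2 rose. ATHB2, a shade-response homeodomain factor, had 16.4 and 15.5 TPM at 30 min, against 5.65 and 4.76 TPM at t0, and rose by 1.45 ± 0.18 (adjusted p = 0.00446). PIF5, a phytochrome-interacting factor, had 64.3 and 97.4 TPM at 30 min, against 29.6 and 19.4 TPM at t0, and rose by 1.68 ± 0.29 (adjusted p = 0.0126). In these genes both 30 min libraries lay above both t0 libraries. HYH, a bZIP factor of the light response, had 6.51 TPM in 30 min replicate 1 and 174 TPM in replicate 2, against 8.84 and 5.59 TPM at t0, and COL2, a B-box protein, had 1.86 and 86.2 TPM at 30 min, against 2.17 and 2.69 TPM at t0.

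Of 20 photosynthesis genes LHCB2.1, LHCB2.2 and LHCB4.2, light-harvesting proteins of photosystem II, rose. LHCB2.1 had 1283 and 5737 TPM at 30 min, against 279 and 508 TPM at t0 (change 2.85 ± 0.59, adjusted p = 0.0223). Both 30 min libraries exceeded t0, replicate 2 by far the more. LHCB2.1 and LHCB2.2 are near-identical copies. With either t0 library left out, none of the 20 passed the test. Chalcone synthase (CHS), the entry to flavonoid synthesis, had 1.57 and 113 TPM at 30 min, against 5.17 and 2.27 TPM at t0, and was higher in replicate 2 alone. Limma called none of 15 anthocyanin genes (4 at an unadjusted p below 0.05).

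The abscisic acid list parted the 2 libraries the other way. The abscisic acid list of 15 genes had a median of 1.02 relative to the t0 mean in replicate 1 and -0.998 in replicate 2, and of its members only CYP707A1, which breaks the hormone down, rose (change 1.25 ± 0.23, adjusted p = 0.0148). RD29A had 2205 and 35.7 TPM at 30 min, against 587 and 240 TPM at t0, KIN1 had 138 and 0.75 TPM at 30 min, against 14.9 and 9.22 TPM at t0, and COR15A had 1882 and 59.5 TPM at 30 min, against 440 and 513 TPM at t0. Each of these stress genes lay above t0 in replicate 1 and below it in replicate 2. The dehydrin LTI30 had 220 and 7.01 TPM at 30 min, against 18.17 and 4.42 TPM at t0, and the kinase gene MPK11 had 160 and 6.78 TPM at 30 min, against 13.8 and 0.41 TPM at t0, both higher in replicate 1 alone. AT2G22880, a VQ-motif protein, had 36.5 TPM in replicate 1 and 0 in replicate 2 at 30 min, against 1.95 TPM and 0 at t0.

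Among genes lower in replicate 1 alone were GNC and GTL1. GNC, a GATA factor of chlorophyll synthesis, had 6.54 and 64.4 TPM at 30 min, against 22.3 and 40.2 TPM at t0. GTL1, a trihelix factor of cell growth, had 9.65 and 77.1 TPM at 30 min, against 26.03 and 52.7 TPM at t0. In both genes replicate 2 lay above the t0 pair. WT had 5.16 TPM of GNC at 30 min and 56.6 TPM at t0, and 10.6 TPM of GTL1 at 30 min and 71.8 TPM at t0.

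**Figure D4:**
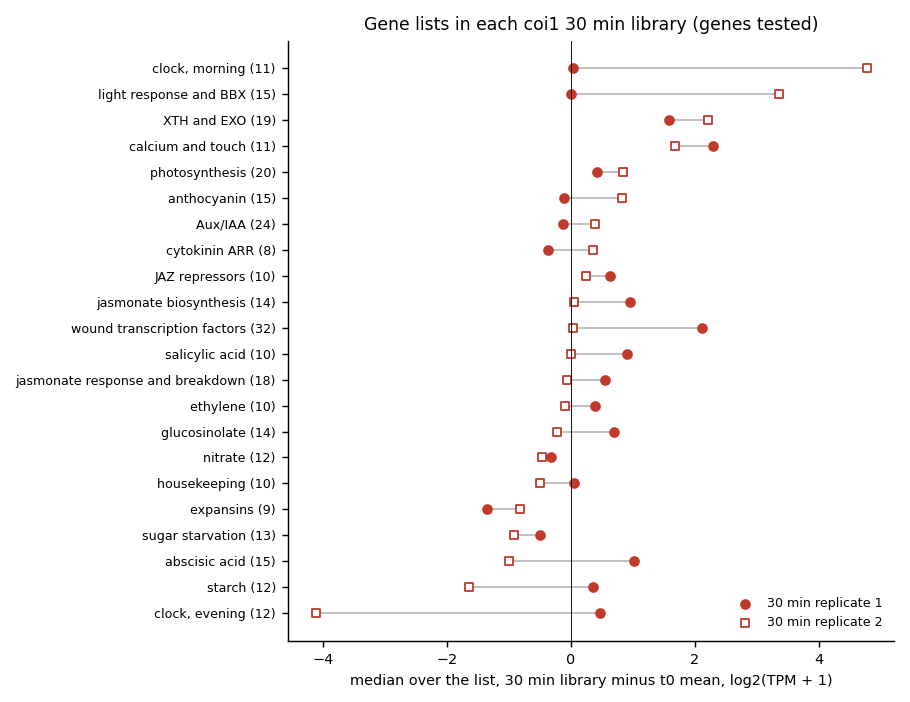
Median over each gene list of the difference from the t0 mean, log2(TPM + 1), in 30 min replicate 1 (filled circles) and replicate 2 (open squares), with the number of genes tested in brackets. XTH and EXORDIUM genes (1.59 and 2.22) and expansins (-1.35 and -0.82) keep their side in both libraries, while morning clock genes (0.03 and 4.78), evening clock genes (0.47 and -4.11) and abscisic acid genes (1.02 and -0.998) do not.

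The calls in the remaining lists are read against those over all genes, of which 2.76% were called higher and 6.47% lower. GASA4 and GASA6, of 11 gibberellin and brassinosteroid genes, fell, and GASA6 had 270.5 and 274 TPM at 30 min, against 519 and 648 TPM at t0 (change -1.09 ± 0.22, adjusted p = 0.0202). The ethylene synthesis genes ACS8 and ACS11, of 10 ethylene genes, rose by 1.81 and 2.93, or 1 of them after rescaling. MYB28, of 14 glucosinolate genes, fell by 1.58 and had 16.2 and 16.9 TPM at 30 min, against 41.0 and 65.0 TPM at t0. ARR8 of 8 cytokinin response regulators, LBD37 of 12 nitrate genes, and SPL3 and SPL9 of 9 age-linked SPL genes fell, and none of these 4 was called after rescaling. The same held for ACT2 and TUB2 of 10 housekeeping genes, with changes of -0.55 and -0.66. Limma called none of 12 ribosome biogenesis, 23 cell cycle, 7 heat shock, 10 salicylic acid and 3 wound-regeneration genes, of which 0, 11, 1, 3 and 1 had an unadjusted p below 0.05, and after rescaling it called 1 salicylic acid gene. Of 7 vascular markers ATHB8, REV and PXY fell, by 0.70 to 0.98 on the log2 scale, or 2 of them after rescaling. The calls in the vascular, ethylene, and gibberellin and brassinosteroid lists also rested on t0 replicate 2. Limma called no guard cell, trichome, epidermis or root marker (0 of 5, 0 of 2, 1 of 4 and 1 of 3 at an unadjusted p below 0.05). The summed level of the 5 guard cell markers was 237 and 613 TPM at 30 min, against 495 and 583 TPM at t0, and that of the 7 vascular markers was 274 and 155 TPM at 30 min, against 272 and 271 TPM at t0, and the part of cell composition in the results was not tested.

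The response of coi1 was set against that of WT to ask which part of the 30 min change needs COI1. Limma over 24 libraries called a different change in 321 of 19757 genes (1.62%), more positive in coi1 for 130 (0.658%) and more negative for 191 (0.967%). WT had 1 library a time and was assumed to vary as coi1 does. The count was 3367 without 30 min replicate 1 and 545 without 30 min replicate 2. The 7 JAZ list members, JAZ2, JAZ3, JAZ5, JAZ6, JAZ7, JAZ10 and JAZ12 were among the negative ones.

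JAZ7 had 1.31 and 0.56 TPM at 30 min and 0.06 TPM and 0 at t0 in coi1, beside 200 TPM at 30 min and 0.13 TPM at t0 in WT, a difference in change of -6.59 ± 0.31 (adjusted p = 2.58e-06). JAZ10 had 110 TPM at 30 min and 1.7 TPM at t0 in WT, and its change was smaller in coi1 by 4.83 on the log2 scale (coi1 minus WT -4.83 ± 0.34, adjusted p = 4.17e-05). JAZ6 had 715 TPM at 30 min and 36.8 TPM at t0 in WT, with a difference of -1.75 ± 0.35 (adjusted p = 0.0391). JAZ5, JAZ6 and JAZ7 thus rose in coi1, with a smaller change than in WT. JAZ13, which was too low for the test within coi1, had 0 and 0.15 TPM at 30 min and 0 at t0 in coi1, beside 42.4 TPM at 30 min and 0 at t0 in WT (difference -5.34 ± 0.29, adjusted p = 8.52e-06).

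ERF109 had 437 TPM at 30 min and 0.03 TPM at t0 in WT, and its change differed by -5.12 ± 0.69 (adjusted p = 0.0035), while MYB15 differed by -2.31 ± 0.48 (adjusted p = 0.0452). Of the wound transcription factors ERF1A also differed. AOS, AOC1 and JAR1 of jasmonate biosynthesis and ORA47, CYP94B3, JOX2, JOX4, ILL6 and IAR3 of jasmonate response and breakdown were negative too, and no member of these 4 lists was positive. ILL6 had 1.0 and 1.46 TPM at 30 min and 2.28 and 3.45 TPM at t0 in coi1, beside 97.9 TPM at 30 min and 6.88 TPM at t0 in WT (difference -4.43 ± 0.32, adjusted p = 4.45e-05). For AT2G17660, the leading shared gene, WT had 50.4 TPM at 30 min and 0.25 TPM at t0, and the difference of 0.44 ± 0.65 was not called (adjusted p = 0.881), which does not show that the genotypes responded alike.

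HAT1 and EXL5 were on the positive side. HAT1, a homeodomain-leucine zipper factor, had 66.0 and 71.2 TPM at 30 min and 16.5 and 17.6 TPM at t0 in coi1, beside 2.14 TPM at 30 min and 13.9 TPM at t0 in WT (difference 4.19 ± 0.29, adjusted p = 4.17e-05). It lay above t0 in both coi1 libraries and below t0 in WT. Of the 19 XTH and EXORDIUM genes 2 were called positive, EXL3 and EXL5, and none negative, and no expansin or abscisic acid gene of the lists was called positive. EXL5 had 150 and 166 TPM at 30 min and 71.1 and 33.8 TPM at t0 in coi1, beside 19.4 TPM at 30 min and 100.1 TPM at t0 in WT (difference 3.97 ± 0.57, adjusted p = 0.00557). ATHB2 differed by 1.55 ± 0.31 (adjusted p = 0.0386). No gene of the morning or evening clock lists was called, with 30 min LHY at 0.29 TPM in WT. In the coi1 30 min pair LHY had 0.26 and 102 TPM, and its difference was 3.06 ± 3.04. The missing calls do not show that clock genes responded alike in the genotypes.

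**Figure D5:**
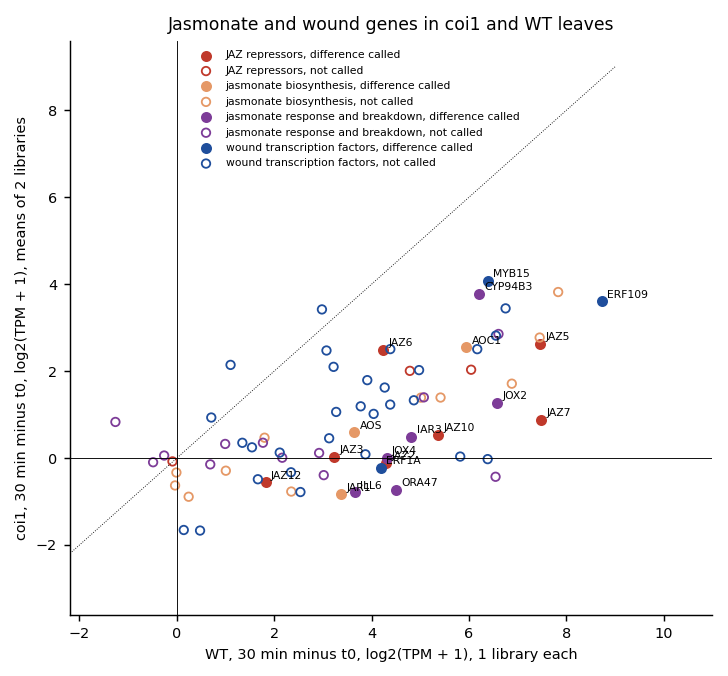
Change at 30 min of jasmonate and wound genes in WT (horizontal, 1 library a time) and coi1 (vertical, means of 2 libraries a time), both in log2(TPM + 1), with filled points where limma called the difference. All filled points lie below the dotted line of equal change, from JAZ6 (difference -1.75) to JAZ7 (difference -6.59).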

How the data were processed

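RNA-seq TPM per locus were used as deposited. The tools listed in the submitters' processing notes are RSEM 1.3.2, STAR 2.7.2b and Trim Galore 0.5.0, with the TAIR10 build. The authors' TPM are therefore taken to be RSEM estimates, which share reads among near-identical copies by estimation, and depth is unknown. Of the 24 libraries, 16 were coi1 (8 times, 2 each) and 8 were WT (1 each); the other 8 columns of WT values carry names that match no sample used here and were not used. The genotypes came in separate tables in the same unit.

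Values were put on the log2(TPM + 1) scale, which understates changes of low genes. A gene was tested if 2 or more of the 16 coi1 libraries had 1 TPM or more (19323 of 37686 loci) with limma 3.58.1 in R 4.3.3 (empirical Bayes with trend, 8 time groups, 8 residual degrees of freedom), and p-values were Benjamini-Hochberg adjusted over all genes tested, with a threshold of 0.05. The difference between genotypes was fitted over all 24 libraries, where the 8 residual degrees of freedom come from coi1 alone. The test was also run on simulated data, and the outcome is not given here. That run is not offered as evidence that the calls hold where the spread between partners differs among the times. Names, annotations and promoter sequence came from RefSeq TAIR10.1, in which 37390 loci matched.

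The genes, classes and lists were chosen with earlier results of these data known, and lists carry no test of their own. Named genes are the 14 highest and 14 lowest called shared changes with a mean of at least 10 TPM, the 8 most extreme of each 1-library class, the 4 list members that changed most, for every list, the 6 most extreme differences from WT each way, and a fixed set around COI1 and the clock. List members named beyond these because they were called, or to describe a class, were chosen after their values were seen. Replicate numbers were not treated as pairs. Some items among the named genes and promoters are not reported here.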

Additional observations from a re-analysis of the deposited data

Results flagged for a closer look

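The change at 30 min differed between coi1 and WT in 321 genes by limma, and the 12 most extreme with at least 10 TPM in a group are given here as coi1 minus WT on the log2 scale, with WT resting on 1 library a time. The positive differences were 4.88 for AGP7 and 4.49 for AGP17, arabinogalactan proteins of the cell surface, 4.45 for PKS2, a phytochrome substrate, 4.19 for HAT1, 4.05 for the aspartyl protease AT4G16563 and 4.01 for the abscisic acid receptor PYL4. PYL4 had 48.3 and 119 TPM at 30 min and 19.0 and 17.7 TPM at t0 in coi1, beside 9.53 TPM at 30 min and 41.8 TPM at t0 in WT. AGP17 had 36.4 and 182 TPM at 30 min and 45.1 and 28.1 TPM at t0 in coi1, so that its coi1 change was carried by replicate 2. The negative differences were -6.59 for JAZ7, -5.64 for the kinase MAPKKK21, -5.64 for CYP94B1, which oxidises jasmonoyl-isoleucine, -5.51 for the glutaredoxin GRX480, -5.43 for AT2G38790 and -5.34 for JAZ13. CYP94B1 had 0 and 0.22 TPM at 30 min and 0 and 0.02 TPM at t0 in coi1, beside 54.6 TPM at 30 min and 0.02 TPM at t0 in WT.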

How the results depend on the processing

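With 2 libraries a time, the counts moved with the choice of fit and of library. Against 1784 called genes, rescaled TPM gave 1162 (457 lower), the 4 libraries alone gave 0 (0 higher, 0 lower, lowest adjusted p 0.404 by limma), and weights per time group gave 7 (7 higher, 0 lower). Leaving out each of the 4 libraries in turn gave 153 to 7901 called, 93 to 1623 higher and 60 to 6278 lower; the lowest count lacked t0 replicate 2 and the highest lacked 30 min replicate 1. The other fits stayed within 1.5 times, including 1680 with a replicate block (5 of 19 XTH and EXORDIUM genes higher, against 7, and no call for PHI-1) and 2098 with the clock score as a covariate. The differences between replicates 1 and 2 correlated at 0.307 between 30 min and t0, and over all 28 pairs of times at over 0.1 in 7 and under -0.1 in 6. Against 326 shared genes, a pseudocount of 0.1 gave 587 (367 higher, 220 lower), a distance of 0.5 gave 1371 (535 higher, 836 lower) and a distance of 2 gave 59 (46 higher, 13 lower). Leaving out 1 library made the shared rule easier to meet and gave 480 to 2716 shared genes, 243 to 1014 higher and 237 to 1815 lower. Genes carried by 1 library numbered 3934 at a distance of 0.5 and 347 at a distance of 2. Differences between coi1 and WT numbered 541 with no filter and 328 to 3367 with 1 library left out. Without 30 min replicate 1, GNC had a change of 1.08 and GTL1 of 1.03, both called and opposite to the full fit; without 30 min replicate 2 they had -2.04 and -1.84. Beyond what the text states, the cause of these shifts was not tested. Of 71 named called genes, 51 lost the call without t0 replicate 2 and 14 after rescaling. Depth cannot be read from TPM, so no counting error is given.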
